A study of Homo sapiens with 2 samples.

Results

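The shores of CpG-rich promoters, the flanks 501 to 2500 bp from a transcription start, were examined for DNA methylation in an acute myeloid leukemia (AML) cell line and in a derivative made to silence its fusion oncogene. Of 18069 autosomal starts of MANE Select transcripts (1 agreed transcript per protein-coding gene), 7913 had a core, the 500 bp on each side of the start, with a GC content of at least 55% and at least 0.75 of the CpG dinucleotides that its C and G content would give. Bases within 500 bp of any other protein-coding start were left out, and a shore needed 5 or more CpG sites, each covered by 5 or more reads in each library. Of 15826 possible shores, 9824 met this rule, 4803 upstream and 5021 downstream, and they belonged to 6603 genes, 3221 of which had both. A further 3110 upstream and 2892 downstream shores had fewer than 5 sites and were not analysed. The rule used sequence, position and read number and no methylation value.

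The study compared SKNO-1, a line with the t(8;21) translocation that fuses RUNX1 to RUNX1T1 (AML1-ETO), with SKNO1-siAE, made from SKNO-1 by infection with a pRRLcPPT.hPGK lentivirus that carries siAGF1 oligonucleotides against the fusion junction. Both were grown in RPMI medium with fetal calf serum and antibiotics, and no drug-treated library was analysed here. The assay was MCC-Seq, in which bisulfite-converted DNA is captured with probes and sequenced, and the methylation level of a site is the share of its reads that kept the cytosine. There was 1 library per cell line, so the effect of silencing, of infection and of separate culture cannot be told apart, and no value below has a replicate error. The fusion transcript is not measured in DNA, so its silencing was not checked here.

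In vertebrate DNA most CpG cytosines are methylated, whereas CpG islands at promoters are mostly free of methylation. A shore is the stretch beside an island in which CpG density falls and methylation rises to the level of the surrounding genome. Shores are known as places where methylation varies between tissues and between normal and cancer cells, often more than in the island itself. Methylation at a promoter is associated with silencing, whereas methylation inside a transcribed gene is common in active genes.

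The sequences of 5 shores are shown for the members that the results turn on. They are not typical flanks, since they hold 27 to 39 CpGs in 300 bp at a GC content of 66.0% to 77.0%, whereas a whole shore of about 2000 bp had a median of 37 CpGs upstream and 44 downstream at 46.9% and 48.2%. They are the stretches of 300 bp with the most measured sites in 3 shores that differed almost completely between the libraries, and in the most densely measured shores that were methylated or unmethylated in both libraries. All are read 5′ to 3′ on the strand of the gene from the GRCh37 (hg19) reference, with each CpG in capitals. The HIVEP2 stretch is chr6:143268514-143268813 on the minus strand, upstream of a zinc finger transcription factor gene, and held 36 CpGs, 6 of them measured. Its 11 sites, where a site is the cytosine of 1 strand, averaged 0 in SKNO-1 against 0.998 in SKNO1-siAE. The ASCL2 stretch is chr11:2290409-2290708 on the minus strand, downstream of the start of a basic helix-loop-helix transcription factor gene, and held 35 CpGs, 15 of them measured. Its 15 sites were at 0.988 and 0. The FZD5 stretch is chr2:208633164-208633463 on the minus strand, in the gene of a Frizzled receptor for Wnt ligands, and held 27 CpGs, 14 of them measured. Its 21 sites were at 0 and 1.
HIVEP2: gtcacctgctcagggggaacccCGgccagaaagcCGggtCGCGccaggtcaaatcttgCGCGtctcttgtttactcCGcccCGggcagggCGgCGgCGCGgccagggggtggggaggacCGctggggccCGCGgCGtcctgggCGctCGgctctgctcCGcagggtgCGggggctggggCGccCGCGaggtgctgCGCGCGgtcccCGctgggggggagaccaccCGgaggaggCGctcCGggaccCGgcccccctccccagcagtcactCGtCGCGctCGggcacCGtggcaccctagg
ASCL2: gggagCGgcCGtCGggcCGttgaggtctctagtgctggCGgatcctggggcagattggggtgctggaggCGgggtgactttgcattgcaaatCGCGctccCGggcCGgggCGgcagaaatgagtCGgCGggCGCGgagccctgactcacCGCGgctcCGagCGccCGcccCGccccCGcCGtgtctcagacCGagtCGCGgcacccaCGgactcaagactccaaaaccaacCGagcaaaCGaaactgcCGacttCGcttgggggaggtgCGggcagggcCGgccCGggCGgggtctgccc
FZD5: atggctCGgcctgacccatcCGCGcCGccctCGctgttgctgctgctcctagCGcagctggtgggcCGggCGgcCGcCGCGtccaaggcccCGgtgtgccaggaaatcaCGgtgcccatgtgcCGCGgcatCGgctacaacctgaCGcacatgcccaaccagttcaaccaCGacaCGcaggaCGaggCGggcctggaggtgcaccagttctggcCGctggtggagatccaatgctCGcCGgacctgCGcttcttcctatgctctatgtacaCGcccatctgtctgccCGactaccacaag

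The last pair of sequences comes from the shores with the most measured sites among those methylated and those unmethylated in both libraries. CpG density was alike in the 300 bp stretches while methylation was opposite. The whole shores were less alike, with 245 CpGs for SOX1 and 108 for STXBP5. The SOX1 stretch, chr13:112722045-112722344 on the plus strand in the gene of a neural transcription factor, held 39 CpGs at a GC content of 72.3%, and its 57 sites were at 0.884 in SKNO-1 and 0.975 in SKNO1-siAE. The STXBP5 stretch, chr6:147524715-147525014 on the plus strand upstream of the gene of a syntaxin-binding protein, held 36 CpGs at a GC content of 73.3%, and its 58 sites were at 0.00432 and 0.00313.
SOX1: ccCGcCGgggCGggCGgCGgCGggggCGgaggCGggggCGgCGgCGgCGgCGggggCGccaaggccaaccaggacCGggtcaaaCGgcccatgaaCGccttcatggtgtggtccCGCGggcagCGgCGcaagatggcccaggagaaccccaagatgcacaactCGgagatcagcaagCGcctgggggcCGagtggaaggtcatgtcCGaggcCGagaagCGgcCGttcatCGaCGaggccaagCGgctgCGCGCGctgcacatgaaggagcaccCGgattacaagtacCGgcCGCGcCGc
STXBP5: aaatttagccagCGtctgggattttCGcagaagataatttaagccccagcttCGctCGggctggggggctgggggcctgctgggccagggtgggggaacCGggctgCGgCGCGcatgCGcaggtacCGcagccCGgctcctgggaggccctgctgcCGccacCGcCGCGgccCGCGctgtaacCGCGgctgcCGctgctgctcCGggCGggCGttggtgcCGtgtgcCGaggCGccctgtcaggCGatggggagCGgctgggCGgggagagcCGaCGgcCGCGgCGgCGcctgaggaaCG

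The libraries were alike in depth. A total of 83620068 reads over 4713346 sites were deposited for SKNO-1 and 82164216 reads over 4694016 sites for SKNO1-siAE, and 3168726 sites were shared. The shores held 208908 different shared sites, 8831 of them in more than 1 shore, at a median depth of 15 reads in both libraries. A median shore had 14 sites upstream and 17 sites downstream, with about 300 reads in each library (307 and 304 upstream, 306 and 303 downstream). These sites made up 23.4% of the CpG cytosines of the upstream and 22.4% of those of the downstream shores, and spanned a median of 429 and 447 bp, so a shore level describes the captured piece of the shore. By the annotation of protein-coding transcripts, 17.1% of shore sites were exonic, 48.0% were intronic and 34.9% were outside such transcripts. The mitochondrial genome, a check of conversion, read as methylated in 0.351% of SKNO-1 reads and 0.378% of SKNO1-siAE reads.

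Methylation rose with distance from the start on both sides and in both lines. In the 500 bp just upstream of the start, sites averaged 0.160 in SKNO-1 against 0.202 in SKNO1-siAE. It was 0.427 and 0.501 between 501 and 1000 bp upstream, 0.580 and 0.630 in the next 500 bp, and 0.678 and 0.736 at the far end of the shore. Downstream, the first 500 bp were at 0.179 and 0.228, the inner end of the shore at 0.313 and 0.372, the next 500 bp at 0.510 and 0.562, and the far end at 0.715 and 0.747. Thus the sides differed near the core, where the downstream shore was lower, and not in that direction at the far end. SKNO-1 was below SKNO1-siAE in every bin, with a mean difference of -0.0737 at the inner end of the upstream shore and of -0.0321 at the far end of the downstream shore.

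**Figure D1:**
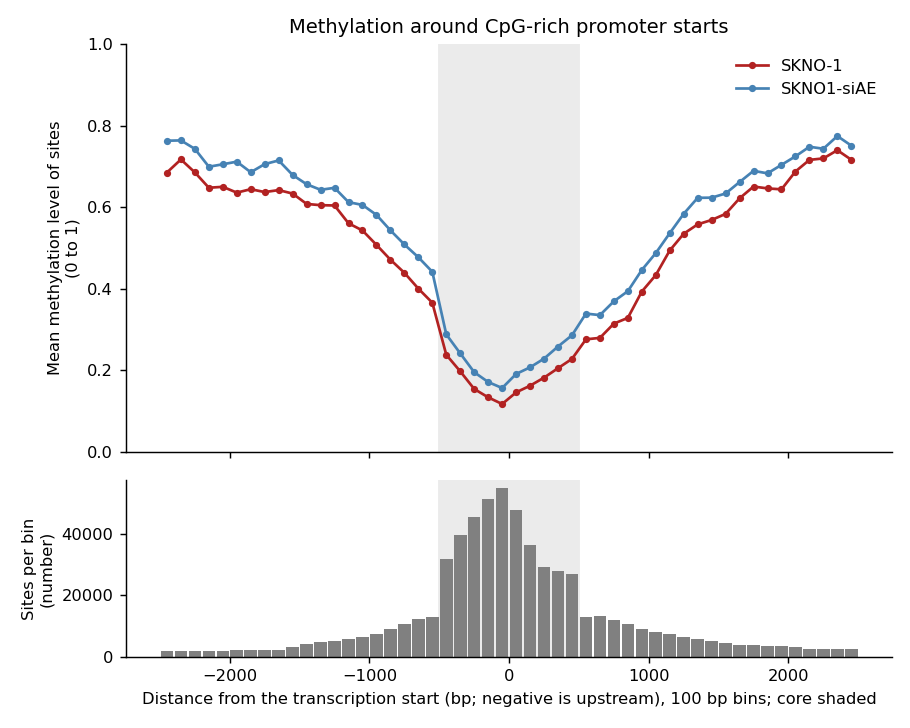
Mean methylation level (upper panel, 0 to 1) and number of shared sites (lower panel) in 100 bp bins of distance from the starts of all 7913 CpG-rich promoters, with the core shaded. The levels fall to 0.118 in SKNO-1 and 0.157 in SKNO1-siAE just upstream of the start and rise outward on both sides. Bases near other starts were left out only outside the core, so site number, and the promoters behind each bin, change at its border.

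Across shores, the median was 0.613 in SKNO-1 against 0.718 in SKNO1-siAE upstream, and 0.327 against 0.430 downstream. The spread was wide. The upstream quartiles were 0.135 and 0.874 in SKNO-1 and 0.210 and 0.910 in SKNO1-siAE, and the downstream quartiles were 0.0168 and 0.797, and 0.0183 and 0.867. At or under 0.1 in both libraries were 795 upstream shores (16.6%) and 1549 downstream shores (30.9%). At or above 0.9 in both were 739 upstream (15.4%) and 529 downstream shores (10.5%). For comparison, cores had a median of 0.00927 and 0.0102. The median of shore minus core level, over shores with a measured core, was 0.116 in SKNO-1 (95% interval over shores 0.103 to 0.130) and 0.0884 in SKNO1-siAE (0.0761 to 0.101). Its size depended on which sites were used: with sites of like depth it was 0.0504 and 0.0406, with the shore ending at 2000 bp 0.0667 and 0.0494, with bases near other starts kept 0.0716 and 0.0551, and with each site given to its nearest start 0.0714 and 0.0509.

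Most shores had a similar level in both libraries. The median difference, SKNO-1 minus SKNO1-siAE, was -0.0150 upstream (95% distribution-free interval over shores -0.0185 to -0.0120) and -0.00301 downstream (-0.00473 to -0.00108). The downstream interval reached 0 with sites of like depth (-0.00265 to 0), on the plus strand (-0.00358 to 0), on the minus strand (-0.00198 to 0) and with the shore ending at 2000 bp (-0.00321 to 0). The downstream median was farther from 0 with at least 10 sites per shore (-0.00531) and with each site given to its nearest start (-0.00686). The upstream median was -0.00730 with sites of like depth and -0.0224 with nearest starts. A shore was called at a difference of at least 0.2, the limit that the study used for regions. Of the upstream shores, 824 (17.2%) were lower and 306 (6.37%) higher in SKNO-1, and of the downstream shores, 722 (14.4%) were lower and 312 (6.21%) higher. In autosomal tiles of 2000 bp, taken as background with the same limits, 17.6% were lower and 4.38% higher. The shares of lower shores were therefore at or under the background, and those of higher shores were above it. The tiles were not matched to the shores for level, which limits what can be called. A region at 0.9 or more in SKNO1-siAE cannot be higher by 0.2, and one under 0.1 cannot be lower by 0.2. At or above 0.9 in SKNO1-siAE were 42.4% of tiles, 27.0% of upstream and 20.5% of downstream shores. At or under 0.1 in both libraries were 9.12% of tiles, 16.6% of upstream and 30.9% of downstream shores. At a difference of at least 0.5, 4.77% of upstream and 4.28% of downstream shores were lower against 4.21% of tiles, and 1.50% and 1.79% were higher against 1.01% of tiles. Shores of promoters with intermediate CpG content had 16.2% lower and 6.48% higher, close to the CpG-rich ones, and cores of CpG-rich promoters had 10.8% lower and 2.63% higher. None of these shares was tested, since shores share 2 libraries.

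**Figure D2:**
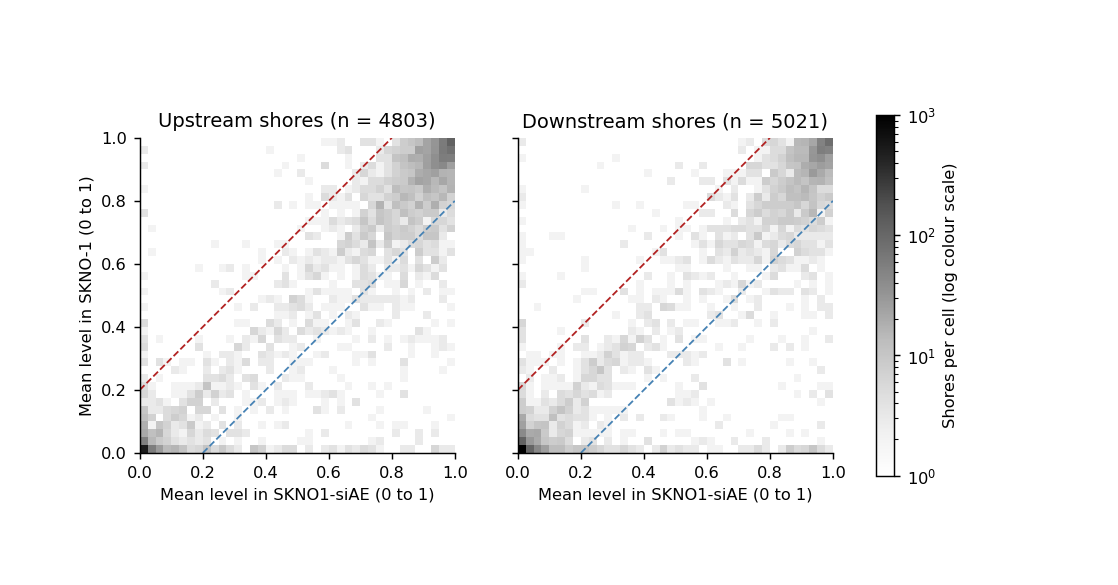
Mean level of each shore in SKNO-1 (vertical axis, 0 to 1) against SKNO1-siAE (horizontal axis, 0 to 1), upstream left and downstream right, with the number of shores per cell as a grey scale on a log scale. Dashed lines mark a difference of 0.2; the darkest cells lie at the corners near 0 and near 1, and more shores fall below the lower line (824 and 722) than above the upper line (306 and 312).

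Single sites were tested as well. With a 2-sided Fisher's exact test on the reads of each site and Benjamini-Hochberg adjustment over all shared sites, calling sites that had an adjusted p under 0.05 and differed by 0.2 or more, 12679 of 97414 upstream shore sites (13.0%) were lower and 5719 (5.87%) higher in SKNO-1. Downstream, 13250 of 119516 sites (11.1%) were lower and 6617 (5.54%) higher. Both sides together had 12.1% lower and 5.70% higher, and all shared sites of the libraries 11.7% lower and 4.40% higher. The share of lower sites was thus above the background upstream, where that of lower shores was under the tiles, and under it downstream, as for shores. Higher sites were above it on both sides, and all shared sites were likewise not matched to shore sites for level. This test compares the reads of these 2 libraries and not the conditions. Reads that cross several CpGs enter at each, and reads had no molecular identifiers, so intervals and tests cover counting error only.

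The strands of a shore were also compared within each library. Their sites need not lie at the same CpGs, and the 15 sites of the ASCL2 stretch above lay at 15 CpGs. A strand difference therefore also holds differences between positions, whereas the libraries were compared at the same sites. Of 2688 upstream shores with at least 5 sites on each strand, the strands differed by at least 0.2 in 187 and 202 (minus strand and plus strand higher) in SKNO-1 and in 181 and 182 in SKNO1-siAE. Between the libraries, the plus strand alone gave 459 lower and 176 higher, and the minus strand alone 475 and 171. Of 2901 downstream shores, the strands differed in 193 and 198 in SKNO-1 and in 165 and 170 in SKNO1-siAE, against 404 lower and 184 higher between libraries on the plus strand and 430 and 198 on the minus strand. In number, lower calls between libraries were more than the calls between strands, and higher calls were about as many as those between strands in 1 direction. The strand counts do not show how many calls 2 libraries would give without a change, so they cannot tell which calls are real. At a difference of at least 0.5, higher calls were more than those between the strands of SKNO-1 in either direction, with the same limit. Upstream, 38 were higher on each strand against 16 and 31 between the strands of SKNO-1, and downstream 62 and 57 against 29 and 25.

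Lower shores were most frequent beside cores that were lower, on both sides. For promoters with a core under 0.1 in both libraries, 367 of 2827 upstream shores (13.0%) were lower and 204 (7.22%) higher, and downstream 244 of 2846 (8.57%) were lower and 171 (6.01%) higher. The shores beside these cores had medians of 0.488 upstream and 0.0945 downstream in SKNO1-siAE. A shore under 0.2 there cannot be lower by 0.2. Where the core itself was lower by at least 0.2, 156 of 496 upstream shores (31.5%) and 231 of 573 downstream shores (40.3%) were lower, against 16.5% and 14.2% of all shores with a measured core. The shores beside lower cores had medians of 0.855 and 0.860 in SKNO1-siAE. Beside cores that were neither under 0.1 in both libraries nor moved by 0.2, the medians were 0.848 and 0.832. Of those shores, 18.8% upstream and 15.4% downstream were lower. Where the core was higher, 23 of 123 upstream shores (18.7%) and 36 of 126 downstream shores (28.6%) were higher, against 6.50% and 5.97% of all. Upstream of such cores, however, 22 shores (17.9%) were lower, nearly as many as were higher, and the median difference was -0.000529. Downstream of them 16 (12.7%) were lower. Read from the shores, 49.5% of the lower upstream and 36.4% of the lower downstream shores with a measured core lay beside a core under 0.1 in both libraries, below the 63.0% and 60.5% of all shores with a core. These shares were not matched for the level of the shore. Of the higher shores, 69.9% upstream and 60.9% downstream lay beside such a core, so the downstream share was that of all shores. A core that moved in the same direction by at least 0.2 was found for 21.1% of lower upstream, 34.5% of lower downstream, 7.88% of higher upstream and 12.8% of higher downstream shores. Of all shores with a core, 11.0% upstream and 12.2% downstream lay beside a lower core, and 2.74% and 2.68% beside a higher one.

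**Figure D3:**
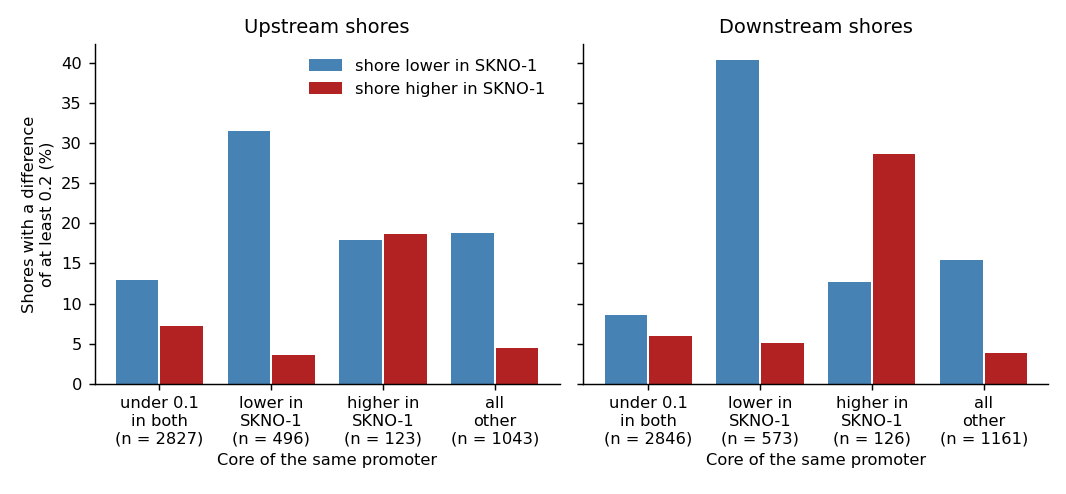
Percentage of shores lower (blue) and higher (red) in SKNO-1 by at least 0.2, grouped by the core of the same promoter, upstream left and downstream right, with the number of shores under each group. Lower shores are most frequent beside cores that were lower (31.5% upstream and 40.3% downstream), and higher shores beside cores that were higher (18.7% and 28.6%), where 17.9% and 12.7% were lower.

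The place where methylation begins was compared where enough of the shore was measured. For promoters with a core under 0.1 in both libraries, the edge was taken as the nearest 250 bp bin at a level of at least 0.5. Upstream, an edge was found in both libraries for 1883 promoters and lay in the same bin in 1625 (86.3%), farther from the start in SKNO-1 in 151 and farther in SKNO1-siAE in 107. Downstream, 1062 of 1234 edges (86.1%) lay in the same bin, 95 farther in SKNO-1 and 77 farther in SKNO1-siAE. These shares are in part fixed by coverage, since with 1 measured bin, as on 459 upstream and 323 downstream sides, the edges cannot differ. With 5 or more measured bins, 133 of 184 upstream edges (72.3%) and 103 of 158 downstream edges (65.2%) lay in the same bin. No edge was found in either library on 1396 upstream and 1966 downstream sides. An edge in SKNO1-siAE alone was found on 249 upstream and 226 downstream sides, and in SKNO-1 alone on 142 and 161. The median edge began 1000 bp upstream and 1500 bp downstream in both lines.

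The upstream and downstream differences of 1 gene were weakly correlated, and where both shores were called they more often moved the same way. Among the 3221 genes with both, 119 had both shores lower and 18 both higher, 431 had a lower upstream shore alone and 329 a lower downstream shore alone, and 163 and 136 had a higher upstream or downstream shore alone. They moved in opposite directions in 40 genes with a lower and 16 with a higher upstream shore. Across these genes, which are not replicates, the correlation of the upstream and downstream differences was r = 0.0949. The level was higher upstream than downstream by a median of 0.0315 in SKNO-1 (95% interval over genes 0.0192 to 0.0497) and 0.0404 in SKNO1-siAE (0.0265 to 0.0517). This was not stable to the choice of sites: with sites of like depth the medians were 0 (0 to 0.0102) and 0.00294 (0 to 0.0196), and on the minus strand alone 0.00439 (0 to 0.0168) and 0.0227 (0.0128 to 0.0395). The upstream shore was higher by at least 0.2 in 36.3% of genes in SKNO-1 and 36.0% in SKNO1-siAE, and the downstream shore in 21.7% and 19.0%.

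Base composition and annotation separated the shores further. The share of higher upstream shores was 8.52% among those with under 0.25 of the CpGs that base content would give, 6.48% between 0.25 and 0.5 and 4.18% between 0.5 and 0.75, but 6.82% of the 132 shores above that. Downstream it went from 7.84% through 7.05% and 4.95% to 2.52%. The share of lower shores showed no such order, at 18.0%, 16.6%, 17.6% and 19.7% upstream. In the upstream shores, sites outside protein-coding transcripts were at 0.515 in SKNO-1 and 0.589 in SKNO1-siAE, a difference of -0.0744. Exonic sites there were at 0.613 and 0.635, a difference of -0.0224. In the downstream shores, intronic sites were at 0.406 and 0.464 and exonic sites at 0.602 and 0.638.

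The relative depth of the libraries, which follows DNA copy number among other things, varied between chromosomes. The median log2 ratio of reads, SKNO-1 over SKNO1-siAE, was 0.68 for upstream shores on chromosome 15 and -0.45 on chromosomes 13 and 18. Where SKNO-1 had at most 0.8 of the reads of SKNO1-siAE, 19.3% of upstream and 17.4% of downstream shores were lower. At like depth the shares were 16.7% and 14.1%, and where SKNO1-siAE had at most 0.8 of the reads of SKNO-1 they were 15.7% and 11.7%. The shares of higher shores went the other way, from 5.74% through 6.31% to 7.05% upstream and from 5.6% through 5.67% to 7.55% downstream. The part of copy number in these values was not tested.

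The largest differences were nearly complete over the sites measured. Among shores with at least 10 sites and 100 reads in each library, the upstream ones that were highest in SKNO-1 included those of PTCH1, ATP9B, SSR1 and FAM76A. PTCH1 encodes the Hedgehog receptor, and its shore (chromosome 9, 98272049 to 98274048) had 1029 of 1084 reads methylated in SKNO-1 (a share of 0.949, 95% Wilson interval 0.935 to 0.961) and 0 of 731 in SKNO1-siAE over 43 intronic sites. Its core was at 0.572 in SKNO-1 and 0 in SKNO1-siAE, the only one of these 4 not under 0.1 in both. ATP9B, of the phospholipid-transporting ATPase family, had 318 of 319 and 5 of 360 reads methylated in its shore. SSR1, a subunit of the translocon-associated complex of the endoplasmic reticulum, had 226 of 233 and 7 of 250. FAM76A had 301 of 324 and 4 of 237. The cores of ATP9B, SSR1 and FAM76A were between 0 and 0.0182 in both libraries.

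The upstream shores that were lowest in SKNO-1 belonged to HIVEP2, TCF12, CLIP1, HS6ST1 and TCF24. The HIVEP2 shore had 0 of 132 reads methylated in SKNO-1 and 271 of 272 in SKNO1-siAE, over 11 sites between -2477 and -2439 bp, while its core was at 0.00779 and 0.00750. A single fragment can cover all of these sites, so their reads are not independent. TCF12, an E protein that pairs with tissue-specific basic helix-loop-helix factors, had 0 of 330 and 392 of 403 reads methylated over 18 sites. CLIP1, which binds the growing ends of microtubules, had 0 of 205 and 352 of 359, and its core was at 0 in SKNO-1 and 0.579 in SKNO1-siAE. HS6ST1, a heparan sulfate sulfotransferase, had 0 of 177 and 194 of 205 beside a core at 0.00423 and 0.0147. TCF24, another basic helix-loop-helix gene, had 3 of 415 and 245 of 263, and its core was at 0.60 and 0.961. Taken over the mean reads of a single site, 12 for HIVEP2, 18 for TCF12, 11 for CLIP1 and 8 for HS6ST1, a count of 0 allows a share of up to 0.242, 0.176, 0.259 and 0.324, by the Wilson interval.

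Downstream, the shores that were highest in SKNO-1 belonged to ASCL2, PURA, IGF1R, SIK1 and RIN3. The ASCL2 shore had 211 of 213 reads methylated in SKNO-1 and 0 of 316 in SKNO1-siAE, and its core went with it, at 1 and 0. PURA, which encodes a protein that binds purine-rich DNA, had 184 of 189 and 0 of 106 over 11 exonic sites, beside a core at 0.0242 and 0. IGF1R, the receptor for insulin-like growth factor, had 493 of 526 and 0 of 216 over 25 intronic sites, beside a core at 0 and 0.00769. SIK1, a salt-inducible kinase, had 302 of 311 and 6 of 241, and its core had no measured site. RIN3, a Ras effector that activates Rab proteins, had 511 of 547 and 6 of 353, beside a core at 0.000901 and 0.0186.

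The downstream shores that were lowest in SKNO-1 belonged to FZD5, TAMALIN, CENPB, MIXL1 and SLITRK5. FZD5 had 0 of 131 reads methylated in SKNO-1 and 147 of 147 in SKNO1-siAE, TAMALIN, a scaffold protein of neurons, 0 of 135 and 215 of 220, and CENPB, which binds a motif of centromeric repeats, 5 of 655 and 837 of 846 over 56 exonic sites. MIXL1, a homeobox gene of early mesoderm and endoderm, had 10 of 347 and 116 of 116, and SLITRK5, a neuronal membrane protein, 0 of 205 and 233 of 245. Unlike most of the upstream genes above, none of these 5 cores was under 0.1 in both libraries. They were at 0, 0.0833, 0.00677, 0.260 and 0.0157 in SKNO-1 and at 0.493, 0.90, 0.513, 0.930 and 0.707 in SKNO1-siAE, in the order of the genes above. These shores were chosen for their difference, so the values describe them and were not tested against each other. A limit of 10 reads at each site left 7 of these shores of largest difference with fewer than 5 sites and so with no value, those of HIVEP2, HS6ST1, ASCL2, PURA, FZD5, TAMALIN and MIXL1. FZD5 averaged 6.24 reads at a site in SKNO-1. At the mean reads of a single site, a count of 0 allows a share of up to 0.390 for FZD5, 0.354 for TAMALIN and 0.204 for SLITRK5.

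**Figure D4:**
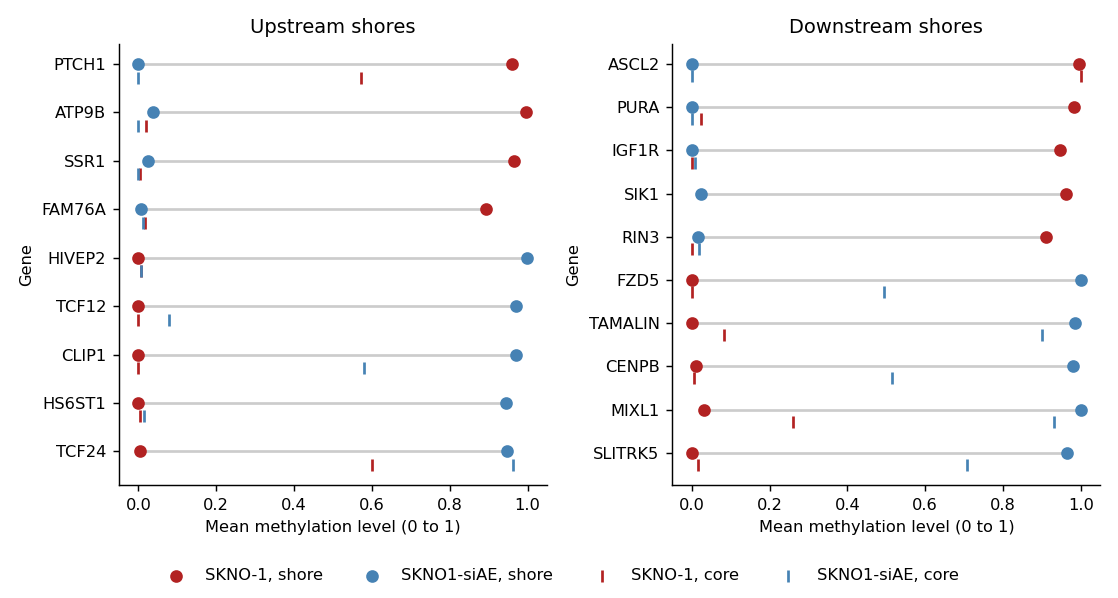
Mean methylation level (horizontal axis, 0 to 1) of shores with the largest differences in each direction upstream (left, 4 higher and 5 lower) and downstream (right, 5 and 5), with SKNO-1 in red and SKNO1-siAE in blue, shores as points and cores as short vertical bars. The 19 pairs of points lie near 0 and 1, from a difference of 0.885 for FAM76A to 1 for FZD5, while the core bars lie near 0 for most upstream genes and spread for the lowest downstream genes.

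Among genes picked with their values in view, CEBPA, the master transcription factor of granulocytes and a target of the fusion protein, had both shores above 0.4 in SKNO-1. Its upstream shore was at 0.627 in SKNO-1 and 0.0437 in SKNO1-siAE over 108 sites, with 1148 of 1673 and 74 of 1625 reads methylated. Its downstream shore was at 0.442 and 0.00980 over 51 sites, with 250 of 464 and 5 of 582 reads methylated, and its core was at 0.00893 and 0. CBFB, the partner subunit of RUNX1, was at 0.438 and 0.205 over 8 upstream sites and at 0.0236 and 0.00421 over 44 downstream sites. The start of RUNX1 was CpG-poor, and that of UBXN8, with 0.625 of the CpGs that base content would give and a GC content of 54.8%, was of the intermediate class, so neither has a shore here.

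Among the myeloid and stem cell transcription factors, CEBPA and CBFB held all of the higher shores, and the other called members were lower. Of 23 upstream shores on this list, 5 were lower and 2 higher (21.7% and 8.70%, against 17.2% and 6.37% of all upstream shores). Of 19 downstream shores, 2 were lower and 1 higher (10.5% and 5.26%, against 14.4% and 6.21% of all downstream shores). The median difference was -0.0470 upstream and 0 downstream (-0.0150 and -0.00301 over all shores). TAL1, a regulator of blood stem cells, was at 0.390 in SKNO-1 and 1 in SKNO1-siAE over 6 upstream sites and at 0.0817 and 0.973 over 56 downstream sites, with 134 of 1224 and 1537 of 1585 reads methylated downstream. HHEX, a homeobox gene of blood progenitors, was at 0.370 and 0.972 upstream, with its core at 0 and 0.0136. IRF8 and IRF4, regulators of monocytes and lymphocytes, were at 0.645 and 0.902, and at 0.543 and 0.970, upstream. CEBPD was at 0.435 and 0.680 upstream with a core at 0 in both.

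Homeobox and other developmental transcription factor genes had the most methylated downstream shores of the lists. The median of 99 upstream shores was 0.741 in SKNO-1 and 0.808 in SKNO1-siAE, and that of 105 downstream shores 0.851 and 0.908, above the 0.327 and 0.430 of all downstream shores. Of these, 13 were lower and 6 higher upstream (13.1% and 6.06%), and 9 lower and 2 higher downstream (8.57% and 1.90%), against 17.2% and 6.37% of all upstream and 14.4% and 6.21% of all downstream shores. FOXO3, a stress-responsive forkhead factor, was at 0.177 and 1 downstream over 11 sites, and its core was at 0 and 0.874. PAX5, the B cell factor, was at 0.0855 and 0.808 over 51 upstream sites, with its core at 0 and 0.905. TBX21, a T cell factor, was at 0.193 and 0.929 over 43 downstream sites. FOXO1 was lower on both sides, at 0.0197 and 0.362 upstream and 0.00133 and 0.245 downstream, beside a core under 0.1 in both. HOXD13 was at 0.984 and 0.580 downstream, 1 of the 2 higher shores there, the other being HOXD8. SOX1 had the most densely measured shore at or above 0.9 in both, 212 exonic sites at 0.936 and 0.971.

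Cell cycle and replication genes had mostly unmethylated downstream shores. The 21 downstream shores on this list had a median of 0.00862 and 0.0193, against 0.327 and 0.430 over all downstream shores. At or under 0.1 in both libraries were 14 of the 21, against 1549 of all 5021 (30.9%). None was lower and 1 was higher (4.76%, against 6.21% of all downstream shores, of which 14.4% were lower). The higher one was that of MCM3, a subunit of the replicative helicase, at 0.40 and 0.0630. Upstream, 3 of 19 were lower and 1 was higher (15.8% and 5.26%), near the 17.2% and 6.37% of all upstream shores. POLE, the leading-strand polymerase, was at 0.495 and 0.971 over 13 sites, too few of them with 10 reads to give a value at that limit. The 34 downstream shores of cytosolic ribosomal protein genes had a median of 0.257 and 0.189. None was lower and 3 were higher (8.82%, near the 6.21% of all), among them RPS2 at 0.828 and 0.208. Of 23 upstream ones, 2 were lower and 1 was higher (8.70% and 4.35%), RPL37 at 0.90 and 0.0235 over 10 sites. The core of RPL37 was at 0.0897 and 0.00111.

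DNA methylation and polycomb genes, which write, remove or read chromatin marks, had shores called in both directions upstream. Of 18 upstream shores 3 were lower and 3 higher (16.7% each, against 17.2% and 6.37% of all), and of 15 downstream shores none was lower and 2 were higher (13.3%, against 14.4% lower and 6.21% higher of all). DNMT3A, a de novo DNA methyltransferase, was at 0.894 in SKNO-1 and 0.160 in SKNO1-siAE over 25 intronic downstream sites, with 449 of 506 and 32 of 219 reads methylated and a core at 0 and 0.0444. TET3, which oxidises methylated cytosine, was at 0.0923 and 0.832 over 28 upstream sites and, in the opposite direction, at 0.784 and 0.153 over 26 downstream sites. The polycomb genes CBX8 and CBX2 were at 0.460 and 0.946, and at 0.380 and 0.630, upstream. ASXL1, often mutated in myeloid leukemia, was at 0.409 and 0 over 9 upstream sites.

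Cytokine and growth factor receptors had 3 lower and 4 higher of 21 upstream shores (14.3% and 19.0%, against 17.2% and 6.37% of all) and 5 lower and 3 higher of 25 downstream shores (20.0% and 12.0%, against 14.4% and 6.21%). FLT3, the receptor kinase of early blood cells, was at 0.00625 in SKNO-1 and 0.727 in SKNO1-siAE over 40 intronic downstream sites, with 2 of 521 and 729 of 944 reads methylated, and at 0.458 and 0.851 upstream, beside a core at 0.00972 and 0.0140. INSR, the insulin receptor, was at 0.975 and 0.0711 over 9 downstream sites, and BMPR1A, a receptor for bone morphogenetic proteins, at 0.913 and 0.273 downstream with its core at 1 and 0. MET was lower upstream, at 0.587 and 0.874.

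Of the zinc finger genes, a family with many members silenced by methylation in tumours, 18 of 97 upstream shores were lower and 10 higher (18.6% and 10.3%, against 17.2% and 6.37% of all), and 8 of 105 downstream shores were lower and 8 higher (7.62% each, against 14.4% and 6.21%). The largest difference was that of ZNF141, at 0.186 and 0.986 over 19 upstream sites, with its core at 0.00218 and 0.952. Of the tumour suppressors, 2 of 16 upstream and 2 of 15 downstream shores were lower (12.5% and 13.3%) and none was higher, where 17.2% and 14.4% of all shores were lower and 6.37% and 6.21% higher. VHL, which targets hypoxia-inducible factors for degradation, was at 0.192 and 0.939 over 16 downstream sites, beside a core at 0.0110 and 0.0145, and CDKN1A, the p21 inhibitor of cyclin-dependent kinases, was at 0.129 and 0.566 over 15 upstream sites. The secreted Wnt antagonists had 3 upstream shores, 1 of them lower, and 3 downstream shores, all lower, of NOTUM, SFRP1 and IGFBP4. Of all shores, 17.2% upstream and 14.4% downstream were lower. IGFBP4 was at 0 and 0.231 downstream, near the limit, and SFRP1 at 0.445 and 0.811 over only 8 sites. NOTUM was at 0.376 and 0.882 downstream over 24 sites, but its difference fell from -0.506 to -0.186, short of the limit, with at least 10 reads per site.

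Shores just inside and just outside the definition of a CpG-rich core had these values. Starts just inside the limit, with 0.75 to 0.80 of the CpGs that base content would give, had upstream medians of 0.671 and 0.754, with 15.6% lower and 5.71% higher. Starts just outside, with 0.70 to 0.75, had 0.710 and 0.787, with 16.6% lower and 5.76% higher. Downstream the medians were 0.448 and 0.535 just inside and 0.537 and 0.655 just outside, with 14.1% lower and 6.16% higher inside and 15.6% and 7.89% outside.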

How the data were processed

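DNA of 1 library of SKNO-1 and 1 of SKNO1-siAE was analysed. Reads had been trimmed and aligned to hg19 (GRCh37), and only sites with 5 or more reads were kept; the submitters' processing notes name cutadapt 1.4.2 and BSMAP 2.73. The authors deposited, for each CpG cytosine on its own strand, the counts of methylated and unmethylated reads, with no normalization. Removal of PCR duplicates is not given in the sources used here. All 3125690 autosomal shared sites fell on CpG cytosines of the stated strand of GRCh37.

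Starts, exons and introns were those of protein-coding transcripts in GENCODE release 44 lifted to GRCh37. The level of a shore was the mean of its site levels, and a shore was called at a difference of at least 0.2. Single sites were tested with a 2-sided Fisher's exact test and Benjamini-Hochberg adjustment over all shared sites. Pooled reads carry 95% Wilson intervals, and medians a distribution-free binomial interval over shores. Tiles of 2000 bp with at least 5 sites gave the background. Named were the 5 largest differences in each direction on each side among shores with at least 10 sites and 100 reads in each library, the largest of each gene list, and the most densely measured shores at or above 0.9 or at or under 0.1 in both. RUNX1 and UBXN8 were named from the study. Under this rule, 1 item is not reported here. All other genes were picked with their values in view. The stretches printed as sequence were taken outside annotated untranslated exons, a condition added later.

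The members, gene lists and rules were chosen with earlier results of these data known. The testing and calling were tested on simulated data. Alternatives covered reads per site, pooled reads, merged or single strands, sites per shore, the outer end, bases near other starts, like depth, nearest starts, the limit of a call, the edge and the adjustment. With 1 library per line, no library could be left out. The analysis used python 3.11.15, numpy 2.4.6, pandas 2.3.3, scipy 1.17.1, numba 0.67.0 and matplotlib 3.10.9.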

Additional observations from a re-analysis of the deposited data

How the results depend on the processing

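No value reversed its direction under any of 200 alternative values; 65 of the main values and 65 of those of named shores stayed within their error or within 1.5 times the count, and 53 and 17 moved. No paired analysis was possible because each cell line had 1 library. Values are given for SKNO-1 and then SKNO1-siAE, and counts for lower upstream, higher upstream, lower downstream and higher downstream shores. With at least 10 reads per site the median of upstream minus downstream level in SKNO-1 was 0.0166, and 156 and 113 edges lay farther out, against 246 and 184 in the main analysis; bins of 500 bp gave 161 in SKNO-1. With at least 10 sites per shore the median downstream difference was -0.00531, and upstream minus downstream was 0.0131 and 0.0198. At that setting 175 of 3337 upstream shores were higher, against 306 of 4803 in the main analysis. With bases near other starts kept, the median upstream difference was -0.0111 and upstream minus downstream 0.0189 and 0.025. With sites of like depth, which left 1996 upstream and 2360 downstream shores, the median differences were -0.00730 and 0, the counts 356, 124, 336 and 155, and upstream minus downstream 0 and 0.00294. On the plus strand the median downstream difference was -0.000880 and upstream minus downstream in SKNO-1 0.0175; on the minus strand they were 0 and 0.00439, with 0.0227 in SKNO1-siAE. With each site given to its nearest start, which left 2638 and 2258 shores, the median differences were -0.0224 and -0.00686, the counts 505, 157, 362 and 129, and upstream minus downstream in SKNO1-siAE 0.0228. A limit of 0.3 gave 508, 193, 470 and 203. Bonferroni adjustment left 5111 lower and 1953 higher sites. The median of shore minus core level, 0.116 and 0.0884 in the main analysis, was 0.0996 and 0.0736 with merged strands, 0.0845 and 0.0617 with at least 10 sites, 0.0667 and 0.0494 with the shore ending at 2000 bp, 0.0716 and 0.0551 with bases near other starts kept, 0.0504 and 0.0406 at like depth, 0.0783 and 0.0622 on the plus strand, 0.0825 and 0.0618 on the minus strand, and 0.0714 and 0.0509 with nearest starts. The fewer shores under the stricter settings lower the counts in part by construction. The shares among the shores left can move as well, and the cause of these and of the other shifts was not tested. At a median of 15 reads a single site is imprecise, and 23.4% of the upstream and 22.4% of the downstream CpG cytosines were measured.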

Other observations

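Among genes with both shores measured, 20 had a difference of at least 0.5 on both sides, chosen after their values were seen. In 14 of them both shores were lower in SKNO-1, in 2 both were higher and in 4 they went opposite ways. Of the 14, the core was under 0.1 in both libraries in 4, PIM1, RGS10, KDM7A and MDGA1. The cores of MMP15 and ZBTB46, also among the 14, had 2 and 0 measured sites, too few for a level. PIM1, a kinase gene of blood cell survival, was at 0.00781 in SKNO-1 and 0.632 in SKNO1-siAE upstream and at 0 and 0.621 downstream, while its core was at 0 in both. RGS10, a regulator of G protein signalling, was at 0.0989 and 0.632 upstream and at 0.0231 and 0.854 downstream, with its core at 0 in both. KDM7A, a histone demethylase gene, was at 0.176 and 0.745 upstream and at 0 and 0.731 downstream. MDGA1 was at 0.0137 and 0.630, and at 0.00926 and 0.867.

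In other genes of the 14 the core moved with both shores. TRIM71, a gene of stem cells, was at 0.00662 and 0.705 upstream over 59 sites and at 0.0159 and 0.957 downstream over 124 sites, and its core was at 0.000595 and 0.945. SORT1, a sorting receptor, was at 0.374 and 0.967, and at 0.0397 and 0.974, with its core at 0.00321 and 0.967. EPS8 and TBC1D9 had cores at 0.00172 and 0.967, and at 0 and 0.906. The 2 genes with both shores higher were IGF2BP1, an RNA-binding protein gene, at 0.805 and 0.0626 upstream and 0.513 and 0.00426 downstream, and TNRC6C, of the microRNA silencing complex, at 0.861 and 0.290, and 0.947 and 0.353. TNRC6C had its core at 0 and 0.00727, whereas that of IGF2BP1 was at 0.682 and 0.00111.

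The 4 genes whose shores went opposite ways were TET3, RET, TBC1D8 and RTN4RL1, each lower upstream and higher downstream. RET, a receptor tyrosine kinase, was at 0.10 and 0.628 over 6 upstream sites and at 0.820 and 0 over 17 downstream sites. TBC1D8 was at 0.0237 and 0.602 over 49 upstream sites and at 0.767 and 0.0996 over 10 downstream sites, beside a core at 0.0155 and 0.00424. None of these patterns has a replicate.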
